A study of Rattus norvegicus with 24 samples.

Results

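Bdnf (ENSRNOG00000047466) encodes brain-derived neurotrophic factor, and Ntrk2 (ENSRNOG00000018839) encodes TrkB, the receptor tyrosine kinase that this factor binds. The 2 genes were taken by their identifiers from a table of 17323 genes, of which 16289 were tested, both members included. They were measured by RNA-seq in 24 libraries of hand-dissected tissue from the ventral tegmental area (VTA) and from both parts of the nucleus accumbens (NAc), its core and its shell, 1 per region from each of 8 male rats, all F1 offspring of Fischer-344 (F344) and Brown Norway (BN) parents from inbred colonies. The 4 rats of cross A were sired by F344 males on BN females, and the 4 of cross B by BN males on F344 females. In each cross 2 rats were injected intraperitoneally with nicotine (nic, 0.4 mg/kg) and 2 with saline (sal) once a day for 4 days.

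All 8 rats, the saline-injected ones included, later received nicotine intravenously at 30 µg/kg per infusion, with 10 infusions a day over 6 days of self-administration, and tissue was taken on day 15. No rat in these libraries was free of nicotine. The injection contrast therefore compares early nicotine with early saline in rats that all received the drug afterwards. By the paper, the 10 infusions include passive ones given besides those a rat earned, and only cross A was inclined to self-administer. The nicotine-injected rats of cross A were prepared in batch E and those of cross B in batch F, the saline-injected rats in batch G, and the VTA libraries of rats 2 and 16 in batch L, as the labels give it. Among nicotine-injected rats the preparation batch and the cross therefore cannot be told apart. Libraries are named by region, cross and rat number, so that NAc core A replicate 2 and VTA A replicate 2 come from the same animal.

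BDNF is made as a precursor that is cleaved by proprotein convertases, packed into vesicles and released by neurons, often far from the cell body. On the receiving cell it brings TrkB molecules together, which phosphorylate each other and recruit adaptors that feed the RAS and MAPK, the PI3K and AKT, and the phospholipase C gamma and calcium arms. Astrocytes carry a truncated TrkB that lacks the kinase. In the mesolimbic system BDNF is known both to be made in the VTA and to reach the NAc along axons, including axons from the cortex, so the mRNA of the ligand and of the receptor need not lie in the same region. The level of an mRNA in dissected tissue says nothing of released protein, and the counts per gene sum all transcripts, the full-length and truncated receptor included.

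Transcription of Bdnf starts at several alternative first exons, and the RefSeq promoter table for the assembly GRCr8 holds 6 Bdnf starts and no Ntrk2 start. The cAMP response element, to which CREB and its coactivator CRTC1 are directed, has the core TGACG, which was searched on both strands in the 250 bases before each start. 1 of the 6 Bdnf windows held it, against 18.2% of the 33469 promoters of all genes, and this window is shown because CREB-dependent activation is the best known control of the ligand. The palindromes TGACGTCA (1.59% of all promoters) and CACGTG (5.59%), each of which reads the same on both strands, were in none of the 6. The window lies at chr3:116637608-116637857 on the plus strand of GRCr8, and the capitals mark the single match, which reads CGTCA on the strand shown and lies at positions -35 to -31 from the start.
Bdnf promoter window: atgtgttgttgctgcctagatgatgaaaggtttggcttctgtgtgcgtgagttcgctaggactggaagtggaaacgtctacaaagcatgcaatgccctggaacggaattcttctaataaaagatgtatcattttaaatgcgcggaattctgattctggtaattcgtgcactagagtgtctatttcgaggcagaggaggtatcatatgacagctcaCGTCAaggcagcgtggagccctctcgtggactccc
A match is a description of letters, and the counts do not tell which of the starts was used in any library.

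The 24 libraries held 17563458 to 24405856 counts over all genes. Bdnf was a gene of low to middling abundance, with 46 to 416 counts per library, and its mean level stood at the 25.0th percentile of tested genes for shell tissue, the 34.7th for core tissue and the 41.7th for VTA tissue. Ntrk2 had 7282 to 17936 counts per library and stood at the 98.1st percentile or above in every region. Counting error was correspondingly larger for Bdnf: the exact Poisson 95% interval of its lowest count, 46 in NAc shell A replicate 11, ran from 33.7 to 61.4, and these intervals cover counting error only. The SD of log2 CPM (counts scaled to a library of 1000000) between the 8 rats, which includes counting error, was 0.51 (core), 0.55 (shell) and 0.45 (VTA) for Bdnf, wider than that of 74.2% to 87.4% of tested genes, and 0.12, 0.12 and 0.16 for Ntrk2, wider than that of 27.5% to 32.0%. Without VTA A replicate 2, described next, the VTA values were 0.32 for Bdnf and 0.12 for Ntrk2.

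The regional labels were checked against cell type markers. The 7 dopamine neuron markers (Th, Slc6a3, Slc18a2, Ddc, Pitx3, Foxa2 and Nr4a2) summed to 1634 to 3126 CPM in 7 of the 8 VTA libraries and to 23.3 to 93.5 CPM in the NAc libraries, where Foxa2 had a count of 0 in 8 of 8 core and 7 of 8 shell libraries. VTA A replicate 2 stood apart with a sum of 94.6 CPM. Its neuron marker sum was 4244 CPM, above the 2452 to 3731 of the other 7 VTA libraries, and its astrocyte marker sum was 3733 CPM, under their 5183 to 6615. Its 8 striatal projection neuron markers summed to 263 CPM, within the 243 to 365 of the other 7 and under the 1994 to 4223 of the NAc libraries. In its dopamine neuron markers that library goes against its VTA label, and in its striatal markers it does not resemble the NAc. The mean levels and main comparisons of the members that use it are given with and without it. The within-rat orders and folds, the fits with rat as a block and the ranks by p include it.

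Bdnf was highest in the VTA and lowest in the NAc shell, and Ntrk2 was higher in the VTA than in either part of the NAc. In the NAc core, Bdnf measured 13.3, 10.1, 6.83 and 3.96 CPM in cross A (rats 1, 2, 11 and 15) and 6.79, 7.07, 6.06 and 8.90 CPM in cross B (rats 3, 4, 13 and 16). In the NAc shell it measured 4.20, 4.79, 2.17 and 2.81 CPM in cross A and 2.19, 2.66, 5.93 and 4.68 CPM in cross B. In the VTA it measured 16.1, 23.2, 10.5 and 11.6 CPM in cross A and 9.32, 10.9, 9.55 and 15.6 CPM in cross B. All 8 VTA values of the ligand lay above all 8 shell values, while the core range reached into both of the others.

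**Figure D1:**
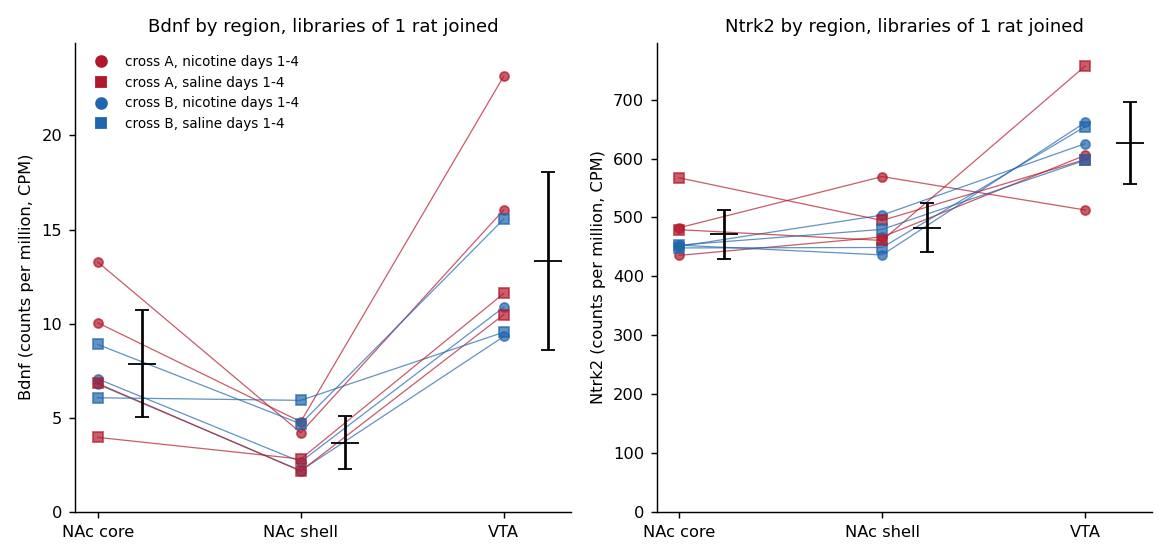
CPM of Bdnf (left) and Ntrk2 (right) in core, shell and VTA, with a line joining the 3 libraries of each rat, color for the cross, symbol for the early injection, and black bars for the mean and SD of 8 libraries. Every Bdnf line dips at the shell and peaks at the VTA, and 7 of 8 Ntrk2 lines rise from the shell to the VTA.

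Mean Bdnf was 7.87 ± 2.84 CPM in the NAc core, 3.68 ± 1.41 CPM in the NAc shell and 13.3 ± 4.73 CPM in the VTA (SD, n = 8 each). Between shell and VTA the ligand was 3.62-fold higher in the VTA (log2 fold change of shell against VTA -1.86 ± 0.24 SE, adjusted p = 4.11e-06). Between core and VTA it was 1.68-fold higher in the VTA (-0.75 ± 0.23, adjusted p = 0.00875). Between core and shell it was 2.13-fold higher in the core (1.09 ± 0.24, adjusted p = 0.00319). These p values came from edgeR's quasi-likelihood test with Benjamini-Hochberg adjustment over 16289 genes, and so do all adjusted p values below unless another tool is named.

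The order VTA above core above shell held within every rat, 8 of 8 for each of the 3 pairs. Core exceeded shell by 1.02- to 3.16-fold with a median of 2.38-fold, VTA exceeded core by 1.21- to 2.93-fold with a median of 1.56-fold, and VTA exceeded shell by 1.61- to 4.83-fold with a median of 4.11-fold. Rat 13, of cross B and saline-injected, was the animal in which core and shell were closest, 6.06 against 5.93 CPM. With rat as a block the 3 calls held, with adjusted p from 7.44e-06 to 0.000901. In the saline-injected rats of batch G alone, the core against shell difference of Bdnf was 0.72 on the log2 scale and no longer passed the test (adjusted p = 0.326), whereas both differences from the VTA did (0.0355 and 0.00268).

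Differences of this kind were common between regions, and the members are to be read against that background. Adjusted p was under 0.05 for 15.1% of tested genes between core and shell, for 61.8% between core and VTA and for 59.8% between shell and VTA. Bdnf ranked 918 by p between core and shell, 8009 between core and VTA and 2249 between shell and VTA, so that its calls against the VTA were shared with most genes.

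Ntrk2 was far more even. In the NAc core it measured 436, 482, 567 and 479 CPM in cross A (rats 1, 2, 11 and 15) and 453, 451, 448 and 453 CPM in cross B (rats 3, 4, 13 and 16). In the NAc shell it measured 467, 569, 495 and 461 CPM in cross A and 436, 504, 449 and 480 CPM in cross B. In the VTA it measured 605, 513, 598 and 757 CPM in cross A and 661, 625, 654 and 597 CPM in cross B. The core and shell ranges covered one another, and the VTA values lay above both except in VTA A replicate 2, which fell below the highest core and the highest shell library.

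Mean Ntrk2 was 471 ± 41.9 CPM in the core, 483 ± 41.6 CPM in the shell and 626 ± 69.8 CPM in the VTA (SD, n = 8 each). The receptor was 1.32-fold higher in the VTA than in the core (log2 fold change of core against VTA -0.40 ± 0.07, adjusted p = 9.74e-05) and 1.30-fold higher than in the shell (-0.38 ± 0.07, adjusted p = 0.000155). It was higher in the VTA than in the core in 8 of 8 rats and higher than in the shell in 7 of 8. The exception was rat 2, the animal of VTA A replicate 2. Between core and shell the difference was -0.04 ± 0.06 with a 95% interval from -0.16 to 0.08 (adjusted p = 0.739), and 5 of 8 rats were higher in the shell. The 2 parts of the NAc thus differed in the ligand and were not shown to differ in the receptor, and the difference between these contrasts was not tested.

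Without VTA A replicate 2, which had the highest Bdnf and the lowest Ntrk2 of the VTA libraries, mean VTA Bdnf was 11.9 ± 2.77 CPM and mean VTA Ntrk2 643 ± 56.7 CPM (n = 7). The Bdnf difference was then -0.59 between core and VTA (adjusted p = 0.0173) and -1.71 between shell and VTA (adjusted p = 2.06e-06). Ntrk2 moved the other way, to -0.43 in each comparison (adjusted p = 9.72e-06 against the core and 9.15e-06 against the shell), and no call was lost.

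Markers of other cell types moved with the VTA contrasts. The 8 astrocyte markers (Aqp4, Gfap, Slc1a3, Slc1a2, Aldh1l1, Gjb6, Glul and Slc4a4) summed to 2958 to 3543 CPM in the core, 3118 to 3665 CPM in the shell and 3733 to 6615 CPM in the VTA, and none was at 0 in any library. Of these 8, 6 were higher and 2 lower in the VTA than in the core, and 6 were higher and 1 lower than in the shell. The 6 oligodendrocyte markers, all 6 of which were higher in the VTA than in either NAc part, summed to 10398 to 15993, 8185 to 13470 and 21851 to 49133 CPM in the same order. Ntrk2 and the astrocyte, oligodendrocyte, microglia and endothelium marker sums were all lowest in the same VTA library. In tissue, more cells of a type and more RNA per cell cannot be told apart, and the part of cell composition in the Bdnf and Ntrk2 differences was not tested.

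**Figure D2:**
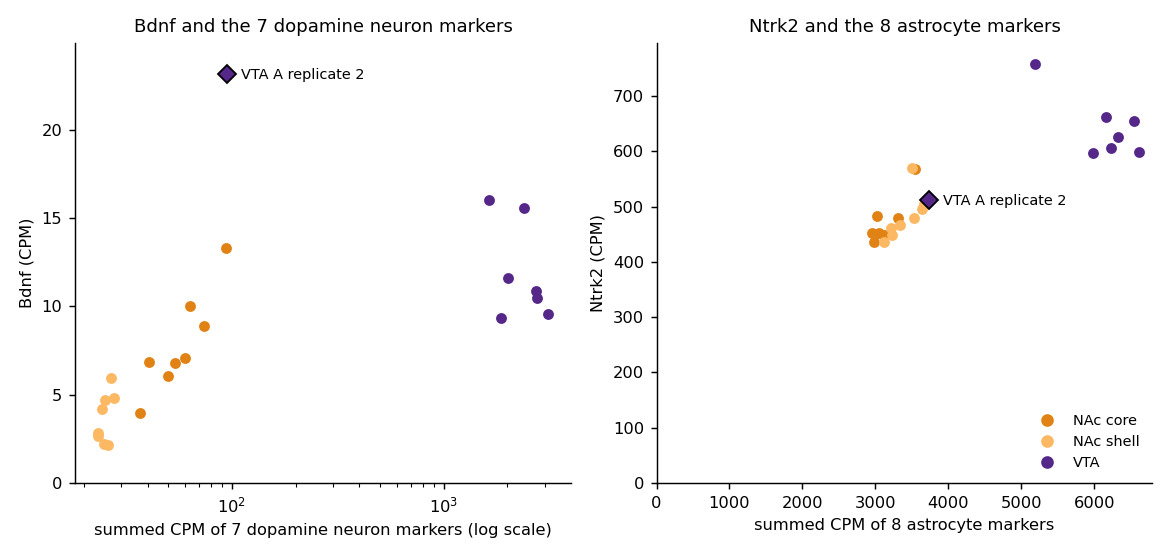
Bdnf CPM against the summed CPM of 7 dopamine neuron markers on a log axis (left) and Ntrk2 CPM against the summed CPM of 8 astrocyte markers (right), 1 point per library, colored by region. VTA A replicate 2 (diamond) has the highest Bdnf, 23.2 CPM, at a dopamine sum of 94.6 CPM, and its Ntrk2, 513 CPM, sits among the NAc libraries.

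Other markers moved with the contrast of core and shell. Of the 5 pan-neuronal markers, 4 were higher in the core than in the shell and none lower, with a median log2 difference of 0.33 against -0.01 over all tested genes. 3 of the 8 striatal projection neuron markers were higher in the core and none lower, and 1 of 8 astrocyte markers was higher and 2 were lower. Of the 7 dopamine neuron markers 1 was higher and 1 lower in the core. Nr4a2, which encodes the nuclear receptor NURR1, measured 43.2 ± 17.5 CPM in the core, 7.16 ± 1.92 CPM in the shell and 29.3 ± 6.23 CPM in the VTA, higher in the core than in the shell by 2.59 (adjusted p = 1.53e-07) and than in the VTA by 0.57 (adjusted p = 0.0249, and 0.0302 without VTA A replicate 2), so that this gene does not mark the VTA libraries against the core. Slc18a2, the vesicular monoamine transporter, was called lower in the core (adjusted p = 0.00782), with means of 0.404 CPM in the core and 1.74 CPM in the shell (n = 8 each) and ranges that overlap. The summed dopamine list, in which Nr4a2 is the 1 marker called higher in the core, ran from 36.8 to 93.5 CPM in the core. In the shell it ran from 23.3 to 27.9 CPM. The part of these markers in the 2.13-fold Bdnf difference was not tested.

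The ratio of the 2 genes within a library does not depend on how libraries are scaled. Per 1000 Ntrk2 counts there were 16.9 ± 6.79 Bdnf counts in the core (range 8.26 to 30.5), 7.65 ± 3.01 in the shell (4.38 to 13.2) and 22.1 ± 10.5 in the VTA (14.1 to 45.2). The shell had the fewest ligand counts per receptor count in the mean, and the VTA maximum came from VTA A replicate 2, without which the VTA had 18.8 ± 5.28 (14.1 to 26.5, n = 7). Counts are not divided by transcript length here, so the ratio compares libraries and not the molar amounts of the 2 transcripts.

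**Figure D3:**
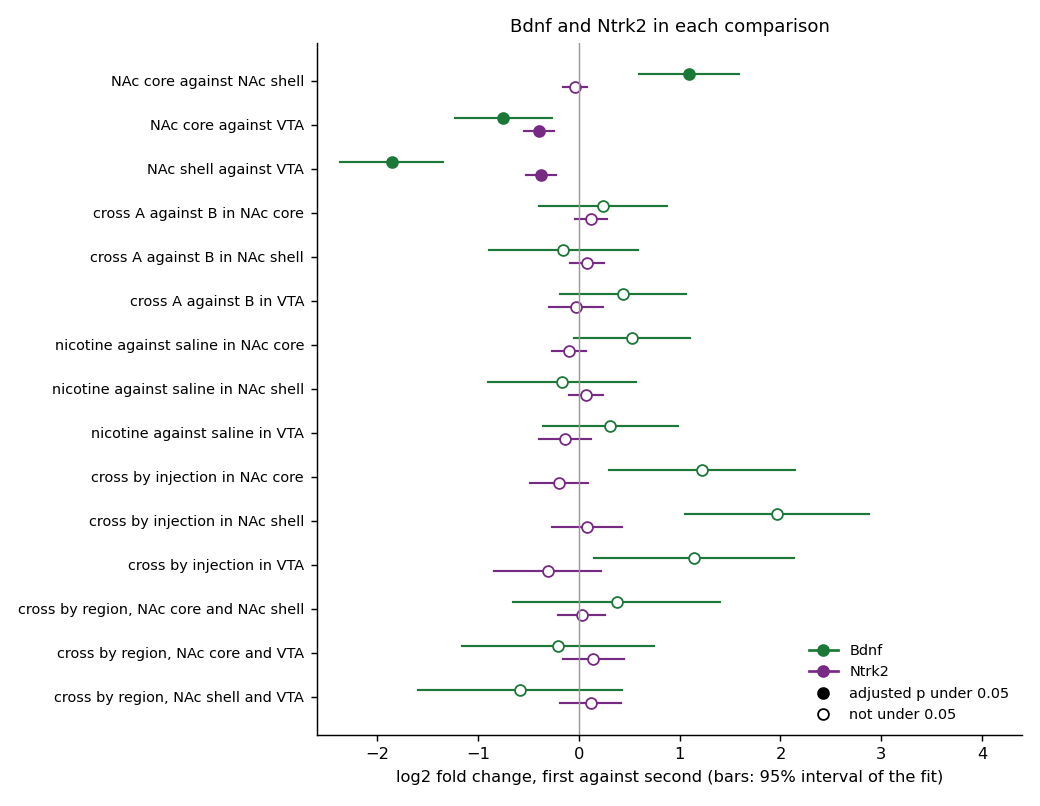
Log2 fold change of Bdnf (green) and Ntrk2 (purple) in 15 comparisons, with the 95% interval of the fit as a bar and filled points where the adjusted p was under 0.05. The 5 filled points all belong to region comparisons, and the 3 Bdnf intervals for cross by injection lie above 0 without passing the adjustment.

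The reciprocal crosses were compared because rats of the 2 crosses differ in which parent gave which genome. By the paper they also differ in behavior, since only cross A was inclined to self-administer nicotine. The paper further reports that genes differing between the crosses in the core were enriched for chromosome X genes. The chromosome of each gene was not examined here. Neither member passed the test in any region. For Bdnf, cross A against cross B was 8.53 ± 4.03 against 7.20 ± 1.21 CPM in the core, 3.49 ± 1.21 against 3.87 ± 1.75 CPM in the shell and 15.3 ± 5.75 against 11.3 ± 2.90 CPM in the VTA (SD, n = 4 each). The log2 differences, A against B, were 0.24 (95% interval -0.39 to 0.87, adjusted p = 0.843), -0.15 (-0.89 to 0.59, adjusted p = 0.996) and 0.44 (-0.19 to 1.06, adjusted p = 0.814). Without VTA A replicate 2 the VTA values were 12.7 ± 2.94 CPM in cross A (n = 3) and a difference of 0.17 (adjusted p = 0.813). None of these Bdnf signs was stable. The core value became -0.47 with batch as a covariate and in saline-injected rats alone, and -0.057 without rat 1. In the core the batch covariate and the saline-injected rats give the same contrast, since only batch G holds both crosses there. The shell value became 0.87 in nicotine-injected rats alone, and the VTA value -0.18 in saline-injected rats alone.

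For Ntrk2 the cross difference was bounded more tightly. It was 491 ± 55.1 against 451 ± 2.21 CPM in the core, 498 ± 49.8 against 467 ± 30.5 CPM in the shell and 618 ± 102 against 634 ± 29.4 CPM in the VTA. The log2 differences were 0.12 (-0.04 to 0.28), 0.08 (-0.08 to 0.25) and -0.03 (-0.30 to 0.24), with adjusted p of 0.633, 0.995 and 0.976, and without VTA A replicate 2 cross A measured 654 ± 89.7 CPM in the VTA (n = 3) and the difference turned to 0.055 (adjusted p = 0.877). In each region the 4 cross A libraries were spread more widely than the 4 of cross B, which in the core lay between 448 and 453 CPM. By edgeR 0.0184% of tested genes (3) were called between the crosses in the core, 0.00614% (1) in the shell and none in the VTA. An unadjusted p was under 0.05 for 1524, 652 and 929 genes, and DESeq2 called 60, 5 and 6.

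Early nicotine against early saline gave no call for either member. Bdnf was 9.30 ± 3.04 against 6.44 ± 2.04 CPM in the core, 3.46 ± 1.23 against 3.90 ± 1.72 CPM in the shell and 14.8 ± 6.24 against 11.8 ± 2.64 CPM in the VTA (SD, n = 4 each). The log2 differences were 0.53 (-0.04 to 1.10, adjusted p = 0.773), -0.17 (-0.91 to 0.56, adjusted p = 0.999) and 0.31 (-0.35 to 0.98, adjusted p = 1). For Ntrk2 they were -0.10 (-0.26 to 0.07), 0.07 (-0.10 to 0.24) and -0.14 (-0.40 to 0.12). Without VTA A replicate 2, one of the 4 nicotine libraries, VTA Bdnf after nicotine was 12.1 ± 3.52 CPM (n = 3) and the VTA differences were 0.017 for Bdnf and -0.069 for Ntrk2 (adjusted p = 1.00 for both). edgeR called none of the 16289 genes in any region, while the unadjusted p was under 0.05 for 1041, 481 and 331 genes of core, shell and VTA, and DESeq2 called 3, 4 and 4. In the NAc the injection groups share no preparation batch, so that batch and injection cannot be told apart there. In the VTA batch L holds 1 library of each, with 23.2 CPM of Bdnf after nicotine (VTA A replicate 2) and 15.6 CPM after saline (VTA B replicate 16), 2 of the 3 highest values of the region.

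Bdnf was also compared over the cross and the early injection together, where its interaction did not pass the main test in any region and passed that of DESeq2 in the NAc shell. In the NAc shell the nicotine-injected rats of cross A measured 4.20 and 4.79 CPM and those of cross B 2.19 and 2.66 CPM. The saline-injected rats were in the opposite order, 2.17 and 2.81 CPM in cross A and 5.93 and 4.68 CPM in cross B. No value of one cross overlapped those of the other within either injection group. With 2 rats against 2 such a separation says little, and the share of all tested genes showing it was not counted.

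**Figure D4:**
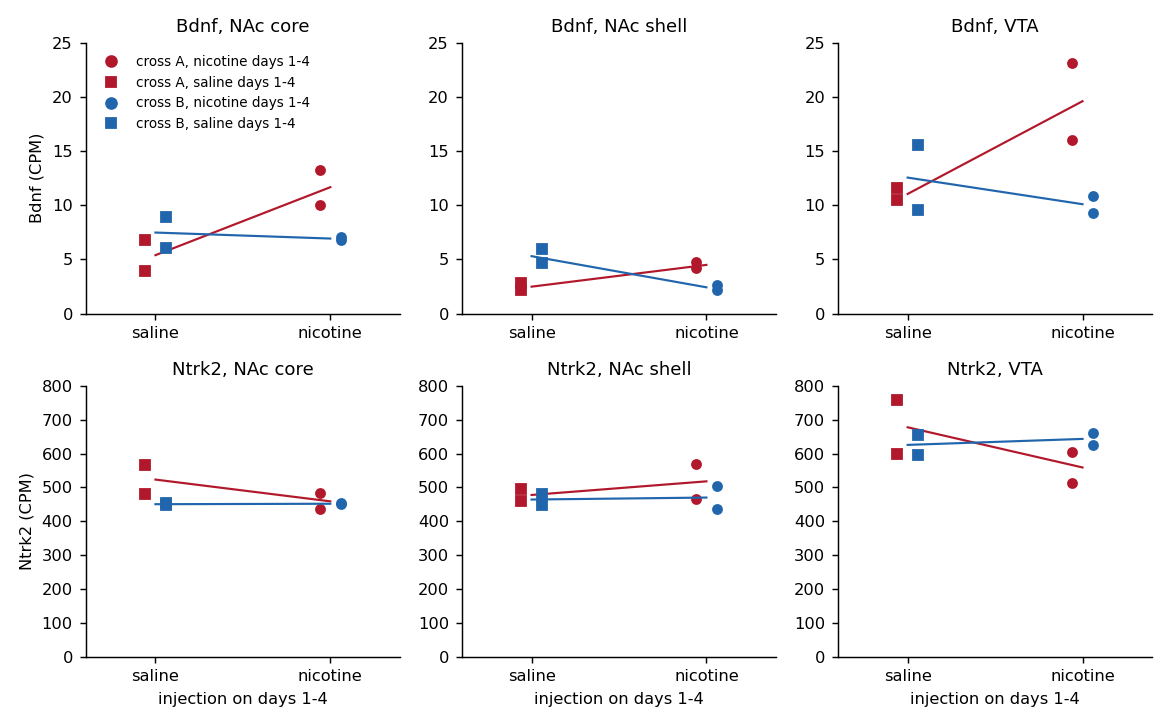
CPM of Bdnf (top) and Ntrk2 (bottom) in saline- and nicotine-injected rats of cross A (red) and cross B (blue) in each region, with a point per library and lines joining the means of 2 rats. The Bdnf lines cross in all 3 regions, and in the NAc shell the values of the crosses, 2 rats against 2, do not overlap within either injection.

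The interaction, which is the A against B difference in nicotine-injected rats minus that in saline-injected rats, was 1.97 ± 0.41 on the log2 scale for Bdnf in the shell (95% interval 1.06 to 2.88, unadjusted p = 0.000673, adjusted p = 0.0996). DESeq2 gave 1.96 with an adjusted p of 0.0218. By edgeR 0.350% of tested genes were called for this interaction in the shell, and by DESeq2 1.38%, so that the call of Bdnf rests on the tool. Leaving out each rat in turn kept it between 1.77 and 2.16, with edgeR adjusted p from 0.127 to 0.361.

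In the other 2 regions the Bdnf interaction had the same sign. In the core, cross A and B measured 11.7 ± 2.28 and 6.93 ± 0.199 CPM after nicotine and 5.39 ± 2.03 and 7.48 ± 2.00 CPM after saline (SD, n = 2 each), an interaction of 1.22 ± 0.41 (unadjusted p = 0.0142, adjusted p = 0.836). In the VTA they measured 19.6 ± 5.02 and 10.1 ± 1.10 CPM after nicotine and 11.0 ± 0.797 and 12.6 ± 4.25 CPM after saline, an interaction of 1.15 ± 0.42 (unadjusted p = 0.0292, adjusted p = 0.895), and 0.86 without rat 2, where 1 library of 16.1 CPM stands for cross A after nicotine and is assumed to vary like the others. The libraries of the 3 regions come from the same 8 animals and are not independent of each other. Each combination of cross and injection holds 2 rats, and the nicotine-injected rats of the crosses share no batch (E or L against F), so that the interaction and the batch cannot be told apart. Within batch G, which holds all saline-injected NAc libraries, the A against B difference of Bdnf was -1.08 in the shell (unadjusted p = 0.0085, adjusted p = 1.00) and -0.47 in the core (adjusted p = 0.731).

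For Ntrk2 the interaction was -0.19 in the core, 0.08 in the shell and -0.31 in the VTA, with adjusted p of 0.866, 0.978 and 0.898. The widest of these intervals, in the VTA, ran from -0.84 to 0.22, and without rat 2 the VTA value was -0.19 (adjusted p = 0.795). Whether the cross difference itself changed from one region to another was tested as well, and it passed for neither member in any of the 3 pairs of regions (adjusted p from 0.757 to 1). Without rat 2, the pairs with the VTA gave -0.029 (core) and -0.51 (shell) for Bdnf and 0.075 and -0.030 for Ntrk2, with adjusted p of at least 0.873. No gene of the 16289 was called by edgeR for it, with 357, 1490 and 951 at an unadjusted p under 0.05 for core and shell, core and VTA, and shell and VTA, and DESeq2 called 2, 24 and 5.

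Because BDNF can reach the NAc from elsewhere, 5 relations between the level of the ligand and that of the receptor were computed across the 8 rats, on log2 CPM with exact two-sided permutation tests. In the VTA the rats with more Bdnf had less Ntrk2 (Pearson r = -0.71, exact p = 0.0495, adjusted over 5 relations p = 0.124, Spearman rho = -0.62, exact p = 0.115, adjusted p = 0.287). VTA Bdnf with NAc shell Ntrk2 gave r = 0.73 (exact p = 0.0374, adjusted p = 0.124) and rho = 0.62 (exact p = 0.115, adjusted p = 0.287). Both rest on rats 1 and 2, the 2 farthest from the median of VTA Bdnf: without them r was -0.25 (exact permutation p = 0.578, n = 6) and 0.41 (exact permutation p = 0.457, n = 6). Without rat 2 alone they were -0.37 (exact permutation p = 0.427, n = 7) and 0.28 (exact permutation p = 0.527, n = 7).

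The other 3 relations were weaker. Bdnf with Ntrk2 gave r = -0.27 within the core (exact p = 0.476, adjusted p = 0.793; rho = -0.21, exact p = 0.619, adjusted p = 1) and r = 0.17 within the shell (exact p = 0.715, adjusted p = 0.853; rho = 0.02, exact p = 0.977, adjusted p = 1). VTA Bdnf with core Ntrk2 gave r = -0.09 (exact p = 0.853, adjusted p = 0.853; rho = 0.00, exact p = 1, adjusted p = 1). Without the 2 farthest rats these 3 became -0.0017, 0.59 and -0.09 (exact permutation p = 0.990, 0.228 and 0.835), and the last was -0.29 without rat 2 alone (exact permutation p = 0.568, n = 7). No relation passed the adjustment, and no batch holds 6 rats, the fewest for which a correlation was computed here. Over all 24 libraries r between the members was 0.45, and after each region's mean was subtracted it was -0.28 (0.50 and -0.11 without VTA A replicate 2). Libraries that share a rat or a region are not independent of each other.

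Other genes of the pathway were counted from a list of 87 symbols by role, of which 42 could be paired with an identifier, all 42 of them tested. Between core and shell 6 of the 42 were higher in the core and 4 lower, against 7.88% and 7.21% of all tested genes. Between core and VTA 19 were higher and 13 lower in the core, against 30.7% and 31.1%, and between shell and VTA 19 were higher and 13 lower in the shell, against 29.3% and 30.5%. Without VTA A replicate 2, 20 were higher and 14 lower in the core, against 32.9% and 32.8%, and 19 and 14 in the shell, against 30.3% and 33.7%. All 32 calls between core and VTA and 31 of 32 between shell and VTA held without that library, the exception being Mef2d. The fold change of called genes moved by over 1.5 times for Camk2a in both comparisons and for Npas4 between core and VTA. Without it 2 calls were gained in each comparison. Between core and VTA these were Dusp6 (0.39, adjusted p = 0.00317) and Nfatc4. Between shell and VTA they were Itpr3 (-0.48, adjusted p = 0.00402) and Npas4 (1.97, adjusted p = 6.86e-05). With the library the Npas4 adjusted p was 0.0616, and its fold change moved by 1.78 times.

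**Figure D5:**
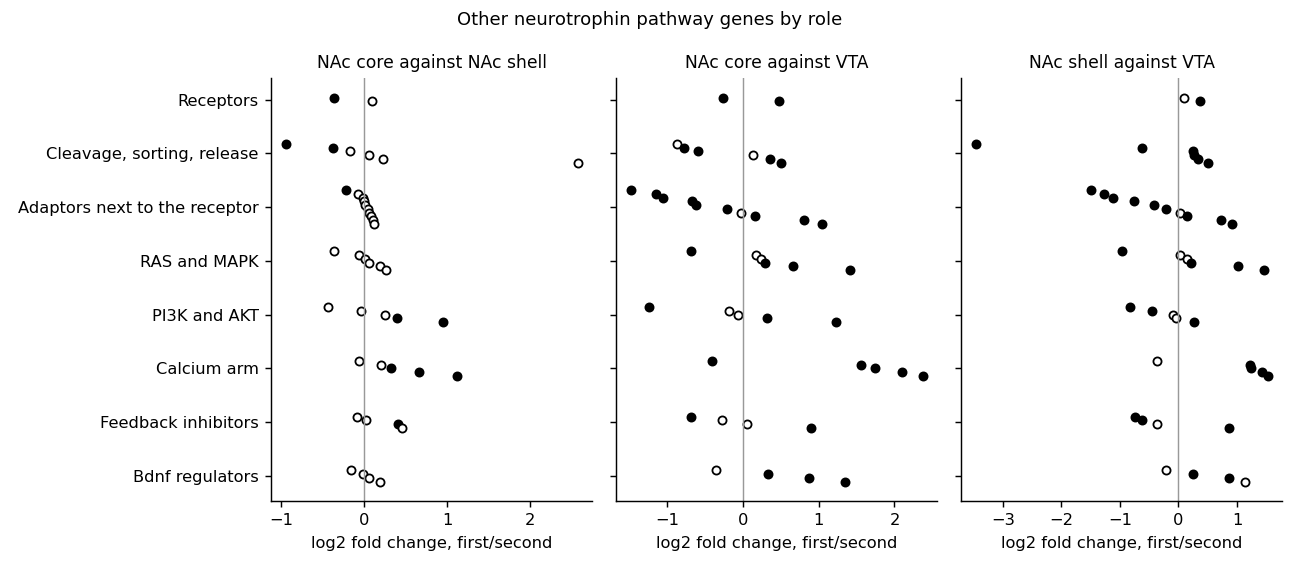
Log2 fold change of 42 neurotrophin pathway genes, sorted by role, in the 3 region comparisons, with filled points where the adjusted p was under 0.05. In the row of the calcium arm 3 of 5 genes are filled and right of 0 between core and shell, and 4 of 5 are in each panel against the VTA.

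Of the receptors, Ntrk3, which encodes the NT-3 receptor TrkC, was lower in the core than in the shell (36.3 ± 6.10 against 46.9 ± 3.99 CPM, log2 fold change -0.37 ± 0.09, adjusted p = 0.00857) and lower in the core than in the VTA (-0.27 ± 0.10, adjusted p = 0.0298). The call against the shell was lost in the saline-injected rats of batch G alone (adjusted p = 0.0937). The call against the VTA was lost in 3 of 14 alternatives, among them those without rat 11 and without rat 15, with an adjusted p of at most 0.0719. Sorcs1, a sorting receptor of the family that binds neurotrophin receptors, was higher in the core (0.48 ± 0.12, adjusted p = 0.00288) and in the shell (0.37 ± 0.11, adjusted p = 0.00766) than in the VTA. The shell call was lost in the saline-injected rats of batch G alone, at 0.13 (adjusted p = 0.549).

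Of the 6 genes for cleavage, sorting and release, 2 were lower in the core than in the shell and none higher. Hap1, whose huntingtin-associated protein takes part in the transport of the BDNF precursor, was lowest where Bdnf was neither lowest nor highest: 164 ± 11.2 CPM in the core, 316 ± 40.6 CPM in the shell and 252 ± 35.2 CPM in the VTA (core against shell -0.95 ± 0.07, adjusted p = 3.61e-08). Plat, tissue plasminogen activator, which starts the cascade that cleaves released precursor, was lower in the core (-0.77 ± 0.11) and in the shell than in the VTA. Pcsk2, a convertase of secretory granules, was higher in the core than in the VTA (0.50 ± 0.11, adjusted p = 0.000749), and the convertase Furin was higher in the shell than in the VTA (0.50 ± 0.08, adjusted p = 3.89e-05). Pcsk1, also a convertase, was called lower in the shell than in the VTA (adjusted p = 0.00758, and 0.0532 by DESeq2) but was close to the limit of detection, at 0.161 ± 0.341 CPM in the shell and 1.80 ± 1.47 CPM in the VTA, so no fold is given.

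Of the 10 adaptors next to the receptor, 3 were higher and 6 lower in the core than in the VTA, and the counts were the same for the shell. The call of Grb2, 1 of the 3, was lost in 5 of 14 alternatives for the core, the rat block included (adjusted p of at most 0.122). For the shell it was lost in 6 of 14 (adjusted p of at most 0.113). Shc2, an adaptor of Trk receptors in neurons, was higher in the core (1.05 ± 0.07, adjusted p = 9.76e-10) and in the shell (0.91 ± 0.07, adjusted p = 9.11e-09). Gab2, a docking protein for PI3K and SHP2, was lower in the core (-1.48 ± 0.17, adjusted p = 7.76e-07) and in the shell (-1.49 ± 0.18, adjusted p = 1.43e-06). Between core and shell only Shc1 was called among the 10, lower in the core by 0.22 on the log2 scale (-0.22 ± 0.07, adjusted p = 0.0324), and that call was lost in 6 of 13 alternatives, including those without rat 1, 2, 3, 4 or 11.

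The calcium arm had the most calls of these roles between core and shell, with 3 of 5 genes higher in the core and none lower and a median of 0.32 against -0.01 over all tested genes. The call of 1 of the 3, Camk2b, was lost in the saline-injected rats of batch G alone (adjusted p = 0.0615). Camk4, the kinase that phosphorylates CREB in the nucleus, was the largest of them, higher in the core than in the shell by 1.12 ± 0.10 (adjusted p = 1.93e-07) and than in the VTA by 2.38 ± 0.17 (adjusted p = 2.86e-09). Between shell and VTA 4 of 5 were higher in the shell, led by Camk2a, the alpha subunit of CaM kinase II (1.53 ± 0.46, adjusted p = 0.00824). Camk2a measured 38.0 ± 45.2 CPM in the VTA with a range from 11.7 to 142 CPM, the highest being VTA A replicate 2, without which it measured 23.1 ± 17.5 CPM (n = 7). It then differed by 2.22 from the shell (adjusted p = 4.65e-06). The IP3 receptor gene Itpr3 was the exception, lower in the core than in the VTA (-0.41 ± 0.17, adjusted p = 0.0468), and lost its call in 7 of 14 alternatives, the rat block and those without rat 1, 4, 11, 13, 15 or 16.

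In the MAPK arm Map2k1, encoding the kinase MEK1, was higher in the core (1.41 ± 0.12, adjusted p = 1.43e-08) and in the shell (1.46 ± 0.11, adjusted p = 1.16e-08) than in the VTA, and Nras was lower in both (-0.69 ± 0.11 and -0.97 ± 0.11). None of the 6 genes of this arm was called between core and shell. In the PI3K arm Pik3cd, the delta catalytic subunit, was higher in the core than in the shell (0.94 ± 0.09, adjusted p = 4.07e-07) and than in the VTA (1.23 ± 0.10, adjusted p = 1.28e-08), and higher in the shell than in the VTA by 0.26 ± 0.07, a call lost in the saline-injected rats of batch G alone (adjusted p = 0.259). The regulatory subunit gene Pik3r3 was lower in the core (-1.25 ± 0.21) and in the shell (-0.83 ± 0.15) than in the VTA.

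Spry2 was higher in both NAc parts than in the VTA (0.90 ± 0.10 in the core and 0.86 ± 0.10 in the shell), whereas Spry4 was lower in both (-0.69 ± 0.11 and -0.62 ± 0.11) and Spred1 was lower in the shell (-0.75 ± 0.18), all 3 being inhibitors of signaling from receptor tyrosine kinases to MAPK. The Spred1 call was lost in the saline-injected rats of batch G alone (adjusted p = 0.0566). Dusp6, a phosphatase of ERK, was higher in the core than in the shell (0.40 ± 0.11, adjusted p = 0.0132), and the call was lost without rat 3 and in the saline-injected rats alone (highest adjusted p = 0.285).

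Of 8 listed regulators of Bdnf transcription 4 were paired. None of the 4 was called between core and shell, and 3 were higher in the core than in the VTA. The fourth, Nfatc4, which encodes a calcineurin-dependent transcription factor, differed by -0.36 ± 0.27 between core and VTA (adjusted p = 0.262). The value was -0.50 without VTA A replicate 2, and it was called (adjusted p = 0.0405). Crtc1, the CREB coactivator, measured 45.5 ± 9.00 CPM in the core, 46.0 ± 5.89 CPM in the shell and 25.3 ± 4.75 CPM in the VTA (shell against VTA 0.86 ± 0.10, adjusted p = 1.66e-06). Npas4, an activity-induced factor that binds Bdnf promoters, was higher in the core than in the VTA (1.35 ± 0.49, adjusted p = 0.0228), a call lost without rat 1, 11, 13 or 15 (adjusted p of at most 0.0758). VTA A replicate 2 held 11.5 CPM of Npas4 and the other 7 VTA libraries 0.740 to 2.85 CPM, and without it the difference was 2.19 (adjusted p = 4.77e-06). Mef2d, a MEF2 family transcription factor, was higher in the core than in the VTA by 0.32 ± 0.12 (adjusted p = 0.0308). It lost this call in 7 of 14 alternatives, without rat 1, 2, 3, 11, 13 or 16 and in the saline-injected rats of batch G alone (adjusted p of at most 0.186). Its call between shell and VTA (0.25 ± 0.10, adjusted p = 0.0313) was lost in 9 of 14, without VTA A replicate 2 included (0.23, adjusted p = 0.0527).

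Between the crosses 1 of the 42 genes passed the test. Rps6ka6, which encodes the ribosomal S6 kinase RSK4 downstream of ERK, measured 6.76, 10.1, 11.0 and 8.58 CPM in the core of cross A (rats 1, 2, 11 and 15) and 18.5, 20.9, 26.1 and 19.8 CPM in cross B (rats 3, 4, 13 and 16). Every cross A library was below every cross B library, at a log2 fold change of -1.23 ± 0.16 (adjusted p = 0.0395), against 0.0184% of tested genes called. The call was lost in 9 of 15 alternatives, with values from -1.33 to -1.11 and an adjusted p of at most 0.315. These were batch as a covariate, saline-injected rats alone, nicotine-injected rats alone and those without rat 2, 3, 4, 13, 15 or 16. By edgeR no pathway gene was called between the crosses in the shell or the VTA, and DESeq2 called 1 and 0. The edgeR value of Rps6ka6 was -0.84 ± 0.16 in the shell (unadjusted p = 0.000183, adjusted p = 0.745). In the VTA it was -0.31 ± 0.28 (adjusted p = 0.864). An unadjusted p was under 0.05 for 10, 2 and 3 of the 42 in core, shell and VTA (23.8%, 4.76% and 7.14%), against 9.36%, 4.00% and 5.70% of all tested genes. None was called between early nicotine and saline in the core, shell or VTA, by edgeR or DESeq2, and 7, 0 and 0 had an unadjusted p under 0.05, 16.7% of the 42 in the core against 6.39%, 2.95% and 2.03% of all tested genes in the 3 regions. For the interaction of cross and injection edgeR called none, with 6, 3 and 4 of the 42 at an unadjusted p under 0.05 (14.3%, 7.14% and 9.52%, against 5.89%, 7.42% and 5.39% of all tested genes). DESeq2 called 1, 2 and 0, against 0.104%, 1.38% and 0.485% of all tested genes.

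The tested genes most like each member were ranked by Pearson r of log2 CPM over the 24 libraries, which share 8 animals and 3 regions. For Bdnf the first 5 had r from 0.87 to 0.90 and included Adcyap1, which encodes the neuropeptide PACAP (0.88), Oxr1 (0.87), Thrsp (0.87) and Tmem163 (0.87), the remaining gene having no paired symbol. After each region's mean was subtracted, the first 5 had r from 0.78 to 0.86 and included Dkk3 (0.81) and Gpd2 (0.78), with 3 unpaired. For Ntrk2 the first 5 had r from 0.94 to 0.96, Scarb2 (0.96) and Ttyh2 (0.95) leading, followed by an unpaired gene, Arhgap23 and Paqr8. Scarb2 and Ttyh2 also led after the region means were subtracted (0.90 and 0.88), followed by an unpaired gene, Aatk and Tmem88b (each 0.84). Of the 5 genes, 0 were the same before and after the subtraction for Bdnf and 3 for Ntrk2. Without VTA A replicate 2, 4 of the 5 stayed among the first 5 for each member before the subtraction, and 3 for Bdnf and 2 for Ntrk2 after it.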

How the data were processed

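RNA-seq was done on 24 libraries of 3 brain regions from 8 rats. According to the labels and the study's methods, the authors trimmed reads with fastp 0.20.0, quantified them with Salmon 0.12.0 against Rnor 6 and collapsed transcripts to genes, and the deposited values are estimated counts per gene in whole numbers, not normalized. Genes whose normalized count exceeded 10 in 3 or more libraries were tested with edgeR 4.0.16 in R 4.3.3 (TMM scaling, quasi-likelihood test, adjusted p under 0.05 over 16289 genes), with DESeq2 1.42.0 as an alternative. CPM used TMM library sizes, and log2 CPM a prior count of 2.

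The deposited table gives Ensembl identifiers only. The RefSeq table used here paired none of them, so symbols came from lists the study published with both names, those of pathway genes from its separate sensitization experiment, and 45 of 87 pathway symbols were not analysed here. The members, lists and tests were chosen with earlier results of these data known. Named genes were, besides the members, the largest called change per role and direction in each region comparison, every pathway gene called between crosses or injections, and the 5 genes most like each member. Mef2d, Nfatc4, Camk2b, Grb2, Nr4a2 and Slc18a2, and second comparisons of named genes, were added after their values were seen. Libraries of the same rat share an animal, which is where the pairing comes from. Correlations of their deviations from group means ran from -0.11 to 0.18 and exceeded 0.1 in 1 or 2 of 8 rats for each pair of regions. The fits were tested on simulated data.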

Additional observations from a re-analysis of the deposited data

Results flagged for a closer look

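Ntrk2 in NAc core A replicate 11 was 567 CPM, apart from the other 7 core libraries, which lay between 436 and 482 CPM. Its gap to the nearest of them was 0.645 of the range of the 8 libraries. A single library stood apart in this way in 1 of 30 groups of Bdnf or Ntrk2 values. Chance alone gives about 1 in 20, so this is no more than chance gives. The same library had the highest astrocyte marker sum of the core, 3543 CPM, where the lowest was 2958 CPM, and the highest oligodendrocyte marker sum, 15993 CPM, where the lowest was 10398 CPM. The part of these markers in its Ntrk2 level was not tested.

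The cross by injection interaction of Bdnf in the NAc shell was 1.96 on the log2 scale by DESeq2 (adjusted p = 0.0218), with both cross A rats above both cross B rats after nicotine and below them after saline. By edgeR it was 1.97 with an adjusted p of 0.0996. The contrast rests on 2 rats per combination, and among nicotine-injected rats the preparation batch cannot be told apart from the cross.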

How the results depend on the processing

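The 5 region calls of Bdnf and Ntrk2 held under DESeq2, median-ratio size factors, no filter, the rat block, without VTA A replicate 2 and without each rat in turn. With rat as a block, Bdnf was 1.10 between core and shell, -0.75 between core and VTA and -1.88 between shell and VTA, and the block changed no call of either member. In the saline-injected rats of batch G alone, with fewer samples, the core against shell values were 0.72 for Bdnf (no longer called) and 0.047 for Ntrk2 (sign turned, not called), and 6 in place of 10 pathway genes were called. The interaction of Bdnf in the shell passed by DESeq2 (1.96). None of the following differences was called in the main fit, and the cause of each turn of sign was not tested. In the core the A against B difference of Bdnf became -0.47 with batch as a covariate and -0.47 in saline-injected rats alone. These are the same contrast there, since only batch G holds both crosses. The shell difference of Bdnf became 0.87 in nicotine-injected rats alone. In the VTA, in saline-injected rats alone, that of Bdnf became -0.18 and that of Ntrk2 0.12. Without each rat in turn, the A against B difference ranged from -0.057 to 0.47 for Bdnf in the core (sign turned without rat 1), from -0.35 to 0.13 for Bdnf in the shell (rat 11 or 13), and from -0.14 to 0.055 for Ntrk2 in the VTA (rat 2). The injection difference of Bdnf in the shell ranged from -0.37 to 0.11 (rat 13), and the Ntrk2 interactions from -0.059 to 0.22 for cross by injection in the shell (rat 2 or 3), from -0.054 to 0.10 for cross by core and shell (rat 4 or 11) and from -0.030 to 0.26 for cross by shell and VTA (rat 2). Of 1041 values of single pathway genes under alternatives, 78 lost their call and 0 turned sign. Without rat 2, the nicotine against saline difference of Bdnf in the VTA was 0.017 and the A against B difference 0.17, in place of 0.31 and 0.44. The relations without rat 2 and the levels, ratio, likeness and pathway counts without VTA A replicate 2 were chosen after seeing the data. Bdnf had 46 to 416 counts per library, which limits its precision.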
